A study of Mus musculus with 13 samples.

Results

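The comparison described here is the effect of donor diabetes on recipient perivascular fat, averaged over 2 donor genotypes. Perivascular adipose tissue was sequenced from mice that had received splenocytes. TS-R recipients got splenocytes of mice with type 2 diabetes (T2DM, 4 libraries) and NTS-R recipients got those of Nlrp3 KO T2DM mice (3 libraries). WTS-R recipients got splenocytes of WT mice (3 libraries) and NS-R recipients got those of Nlrp3 KO mice (3 libraries). All 13 libraries of the series entered the comparison, 7 from recipients of diabetic splenocytes (called diabetic-donor libraries below) and 6 from recipients of non-diabetic splenocytes. The effect is the mean of TS-R minus WTS-R and NTS-R minus NS-R, from a single fit to the 4 groups. Genes with the same sign in both genotypes form the shared effect, and these were 7774 of the 17270 genes tested.

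The mice were on a C57BL/6 background. The genotype label reads WT for TS-R and WTS-R and Nlrp3 KO for NTS-R and NS-R, and it does not say whether donor or recipient is meant. The labels give no age, sex, batch, cell dose, collection time or way of inducing diabetes. They do not say which libraries came from separate animals either, so every p-value measures the spread between these libraries. The comparison asks what diabetic immune cells do to the fat, whatever their Nlrp3 genotype.

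Perivascular fat of mice surrounds large vessels such as the aorta, holds brown-like adipocytes that burn fatty acids, and signals to the vessel wall beneath. Its stromal cells lay down collagen matrix, and macrophages, lymphocytes and plasma cells live among the fat cells. The spleen is a store of B cells, T cells and monocytes. NLRP3 is a sensor protein of myeloid cells that assembles the inflammasome, in which caspase-1 cuts IL-1 beta into its active form.

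Fat cell transcripts were present in every library. Adipoq, the adiponectin gene, was at 363 to 1298 CPM (counts scaled to the size of the library) in TS-R, 1253 to 1808 CPM in NTS-R, 1669 to 1743 CPM in the WTS-R libraries and 1089 to 1609 CPM in the NS-R libraries. Several libraries also held transcripts of neighbouring tissue. The lymph node gene Glycam1 reached 965 CPM in replicate 3 and 66.9 CPM in replicate 2 of TS-R. The fast myosin Myh4 was at 2733 CPM in TS-R replicate 1. The airway gene Scgb1a1 was at 2252 and 4689 CPM in NS-R replicates 1 and 2, and at 0 in NS-R replicate 3. Xist, the X-inactivation RNA of female cells, reached 667 CPM in TS-R replicate 3 and 530.3 CPM in NS-R replicate 3. Totals ran from 14216706 to 37011122 counts per library, so a count of 0 allows up to 0.0786 to 0.242 CPM. These floors cover counting error only.

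Nlrp3 itself was low and did not follow the genotype label. The levels are those of recipient fat, so they do not check the genotype of the donors. It was at 0.455, 1.22, 2.94 and 1.1 CPM in the TS-R libraries and 1.21, 0.534 and 0.403 CPM in the NTS-R libraries, against 0.641, 0.252 and 0.707 CPM in the WTS-R libraries and 0.995, 0.462 and 1.57 CPM in the NS-R libraries. The 4 groups overlapped. The averaged log2 fold change of Nlrp3 for donor diabetes was 0.48 (SE 0.48, edgeR FDR 0.719).

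No gene passed the main test. By edgeR's quasi-likelihood test 0 genes were higher and 0 were lower at a Benjamini-Hochberg FDR under 0.05, and the lowest FDR was 0.251, so every gene named below is given by its values and none as a called change. Before adjustment, 1139 genes were higher at p under 0.05 (6.6% of those tested) and 826 were lower (4.78%), together 11.4% where chance alone gives 5%. Of these 1965 genes 1506 had the same sign in both genotypes, which is 76.6%, against 45% of all genes tested. The averaged effect is built from the same 2 differences, so this share is a description and not a test. The shared genes at that level were 799 higher (4.63% of all tested) and 707 lower (4.09%). Other tests on the same counts did make calls. DESeq2 called 264 shared genes higher (1.53%) and 130 lower (0.753%), and limma's voomWithQualityWeights called 108 (0.625%) and 79 (0.457%). The 2 tools called 129 shared genes in common, 79 higher (0.457%) and 50 lower (0.29%), which is 32.7% of DESeq2's list and 69% of voom's.

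The effect of donor diabetes was compared between the 2 genotypes. Across the 17270 genes the 2 effects had a Pearson correlation of -0.10 and a Spearman correlation of -0.14, given without a test because genes are not replicates. With p under 0.05 before adjustment, TS-R minus WTS-R had 2622 genes higher (15.2%) and 1221 lower (7.07%), and NTS-R minus NS-R had 216 (1.25%) and 883 (5.11%). The interaction, which tests whether the 2 effects differ, passed the FDR for 0 genes and reached an unadjusted p under 0.05 for 3165 (18.3%). Among the 1965 genes of the averaged effect it did so for 894 (45.5%). An average over genotypes can therefore stand for a change in a single one, and both effects are given for most genes below. Counts of list members below are to be set beside the shares of all genes tested. At an unadjusted p under 0.05 these were 6.6% higher and 4.78% lower in the averaged effect, and 18.3% in the interaction.

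**Figure D1:**
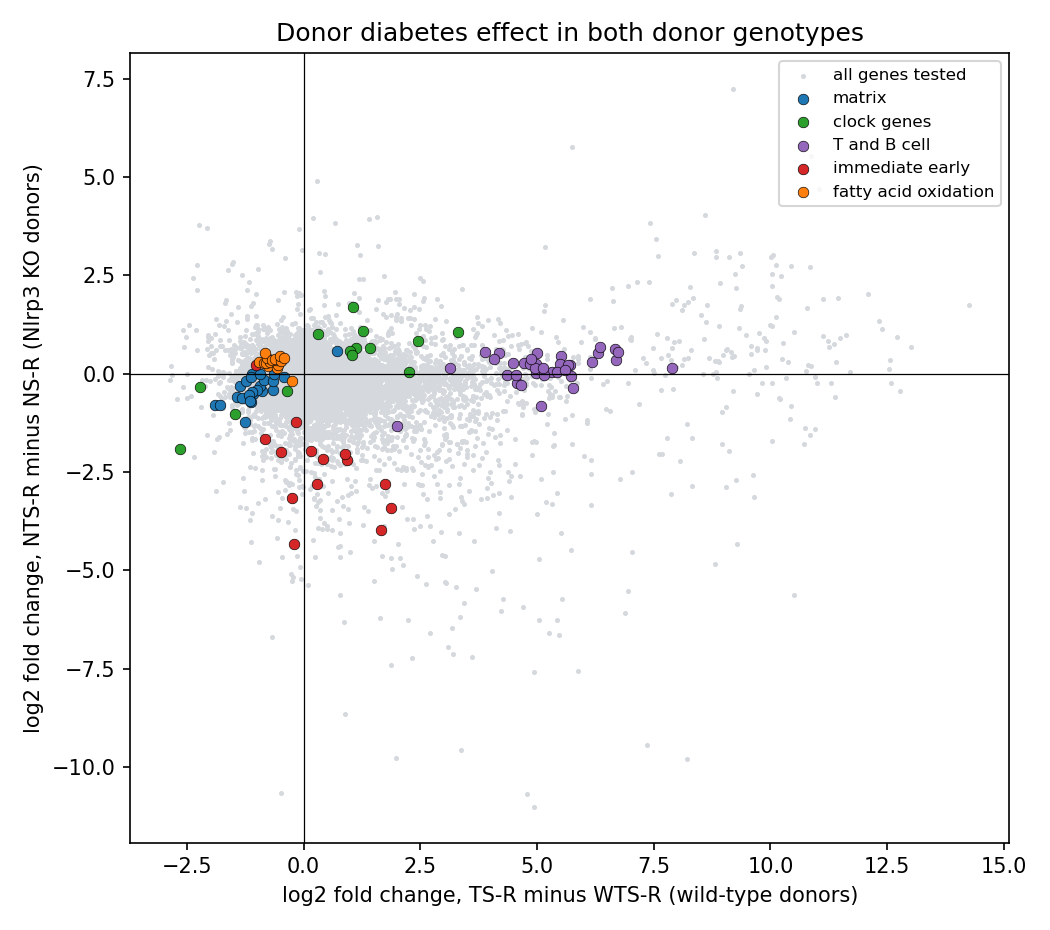
Each point is a gene, with its fitted log2 fold change in TS-R minus WTS-R on the x axis and in NTS-R minus NS-R on the y axis; grey points are all 17270 genes tested and coloured points are members of 5 gene lists. Of the 24 matrix genes 22 lie in the lower left, with Tnc in the upper right, most clock genes in the upper right, T and B cell genes far right near 0 on the y axis, and fatty acid oxidation genes above 0 on the y axis and below 0 on the x axis, with 1 exception.

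In all, 30 genes lay lower in every diabetic-donor library than in every other library (0.174% of those tested) and 19 lay higher (0.11%). Among the lower ones was Spon2, which encodes a secreted matrix protein. Spon2 was at 3.44, 1.4, 0.875 and 1.52 CPM in the TS-R libraries and 4.86, 1.53 and 1.69 CPM in the NTS-R libraries, against 9.17, 6.23 and 12.4 CPM in the WTS-R libraries and 11.8, 18.2 and 5.18 CPM in the NS-R libraries. The nearest libraries of the 2 sides, at 4.86 and 5.18 CPM, almost touched. Its log2 fold change was -2.34 (SE 0.56) in TS-R minus WTS-R and -2.11 (SE 0.61) in NTS-R minus NS-R, and the average of -2.23 (SE 0.42) was -1.37 with the level of clock genes as a covariate. In bulk tissue, fewer cells of a type and less RNA per cell cannot be told apart.

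Arhgef19, a gene for a guanine nucleotide exchange factor, was at 1.77 to 2.81 CPM in the TS-R libraries and 3.2 to 3.55 CPM in the NTS-R libraries, against 3.66 to 4.53 CPM in the WTS-R libraries and 5.45 to 10.7 CPM in the NS-R libraries. Its 2 highest values were those of the airway-rich NS-R replicates 1 and 2, and the averaged log2 fold change was -1.05 (SE 0.20) with them and -0.78 without. Rap1gap, a gene for a brake on the GTPase Rap1, was at 12.6 to 18 CPM in the TS-R libraries and 11.6 to 18.2 CPM in the NTS-R libraries, against 19.9 to 21.2 CPM in the WTS-R libraries and 24.2 to 30.1 CPM in the NS-R libraries. The averaged log2 fold change of Rap1gap was -0.66 (SE 0.14).

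Other genes of this set act in the vessel wall and its surroundings. Kcnj8, the pore of a vascular ATP-sensitive potassium channel, had a log2 fold change of -0.45 in TS-R minus WTS-R and -0.60 in NTS-R minus NS-R. Ackr3, a scavenging receptor for the chemokine CXCL12, had -1.21 and -0.64. Mfap2, a microfibril protein gene, was at 2.22, 2.74, 1.38 and 1.95 CPM in the TS-R libraries and 3.18, 3.2 and 2.18 CPM in the NTS-R libraries, against 4.49, 3.58 and 6.05 CPM in the WTS-R libraries and 5.66, 7.45 and 3.75 CPM in the NS-R libraries. For Mfap2 the averaged log2 fold change was -1.08 (SE 0.24). Kcnj8, Ackr3 and Mfap2, and below Slco2b1, Rere, Col3a1, Eln, Tnc, Tef, Ciart and Per1, were picked after their values were seen.

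Fam222a was lower on average with overlapping groups. It was at 1.44 to 3.72 CPM in the TS-R libraries and 0.887 to 1.97 CPM in the NTS-R libraries, against 6.54 to 10.5 CPM in the WTS-R libraries and 3.68 to 5.66 CPM in the NS-R libraries. TS-R replicate 4 at 3.72 CPM and NS-R replicate 3 at 3.68 CPM made the overlap. On average Fam222a had a log2 fold change of -1.70 (SE 0.27).

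Some of the genes ranked highest among the lower ones rested on the Nlrp3 KO arm. Nr4a1, an early-response nuclear receptor gene, had a log2 fold change of -0.25 (SE 0.44) in TS-R minus WTS-R and -3.15 (SE 0.51) in NTS-R minus NS-R. The epithelial splicing regulator Esrp2 had -0.57 (SE 0.35) and -2.08 (SE 0.39), and Tmem254a had -0.31 (SE 0.33) and -2.05 (SE 0.37). Slc16a11, of the monocarboxylate transporter family, was at 37.4 and 34.5 CPM in the airway-rich NS-R replicates 1 and 2 and at 3 CPM in NS-R replicate 3, with 0.621 to 1.99 CPM in the other 10 libraries. Its averaged log2 fold change was -2.38 (SE 0.50), and -0.87 without those 2 libraries. The unadjusted interaction p was 0.00089 for Nr4a1, 0.013 for Esrp2, 0.0041 for Tmem254a and 0.00072 for Slc16a11 by edgeR, and the interaction FDR lay between 0.12 and 0.173.

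Among the genes higher in every diabetic-donor library, Slco2b1 and Rere had effects of like size in both genotypes. Slco2b1, an organic anion transporter gene, was at 53.4, 59.3, 57.2 and 60.2 CPM in the TS-R libraries and 58.4, 58 and 64 CPM in the NTS-R libraries, against 50, 33 and 45.7 CPM in the WTS-R libraries and 42, 42.8 and 50.1 CPM in the NS-R libraries. Its log2 fold change was 0.42 (SE 0.16) in TS-R minus WTS-R and 0.42 (SE 0.17) in NTS-R minus NS-R. Rere, a nuclear receptor coregulator gene, had 0.64 (SE 0.18) and 0.38 (SE 0.19).

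Slc2a3, the gene of glucose transporter GLUT3, was at 11.6, 12.8, 20.3 and 6.04 CPM in the TS-R libraries and 4.97, 5.34 and 7.82 CPM in the NTS-R libraries, against 3.14, 3.02 and 2.57 CPM in the WTS-R libraries and 4.87, 3.98 and 3.95 CPM in the NS-R libraries. The groups did not overlap, though NTS-R replicate 1 (4.97 CPM) and NS-R replicate 1 (4.87 CPM) were close. Its log2 fold change was 2.12 (SE 0.37) in TS-R minus WTS-R and 0.50 (SE 0.37) in NTS-R minus NS-R. Padi2, which encodes an enzyme that turns protein arginine into citrulline, had 2.40 (SE 0.47) and 0.71 (SE 0.47), and its highest library was the muscle-rich TS-R replicate 1 at 30 CPM. Without the 4 libraries rich in muscle, lymph node or airway transcripts (TS-R replicates 1 and 3 and NS-R replicates 1 and 2) the averaged log2 fold change of Padi2 was 0.95 in place of 1.55.

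C6 and Stab2 were higher mainly in TS-R. C6, a terminal complement component gene, was at 2.19, 7.37, 9.29 and 12.1 CPM in the TS-R libraries and 1.62, 0.458 and 0.726 CPM in the NTS-R libraries, against 0.385, 0.252 and 0.515 CPM in the WTS-R libraries and 0.602, 0.693 and 0.75 CPM in the NS-R libraries. The NTS-R and NS-R libraries overlapped. Stab2, a scavenger receptor gene of sinus endothelium, was at 0.938, 9.44, 14.7 and 21.9 CPM in the TS-R libraries and 0.0806 to 0.347 CPM in the NTS-R libraries, against 0.0629 to 0.129 CPM in the WTS-R libraries and 0.0577 to 0.204 CPM in the NS-R libraries. The lymph node gene Glycam1 was at 0.0284, 66.9, 965 and 8.11 CPM in the same 4 TS-R libraries, and its part in the Stab2 difference was not tested. The averaged log2 fold change was 2.40 (SE 0.43) for C6 and 3.97 (SE 0.76) for Stab2, and the interaction p by edgeR was 0.0007 and 0.0018 before adjustment.

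Fkbp5 showed the reverse weighting. This glucocorticoid-induced chaperone gene was at 48.9, 44.5, 43.2 and 40.1 CPM in the TS-R libraries and 108, 61 and 77.4 CPM in the NTS-R libraries, against 40, 43.8 and 13.6 CPM in the WTS-R libraries and 20.3, 18.6 and 18.1 CPM in the NS-R libraries. NTS-R stood clear of NS-R, whereas TS-R and WTS-R overlapped. Its log2 fold change was 0.44 (SE 0.32) in TS-R minus WTS-R and 2.11 (SE 0.35) in NTS-R minus NS-R. Of the 10 listed glucocorticoid-responsive genes 1 was higher and 2 were lower with an unadjusted p under 0.05. Of all genes tested 6.6% and 4.78% were. The kinase gene Sgk1 had an averaged log2 fold change of -0.80 (SE 0.26), and Cdkn1a, a cell cycle inhibitor gene, had -1.26 (SE 0.33) with -0.02 in NTS-R minus NS-R.

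**Figure D2:**
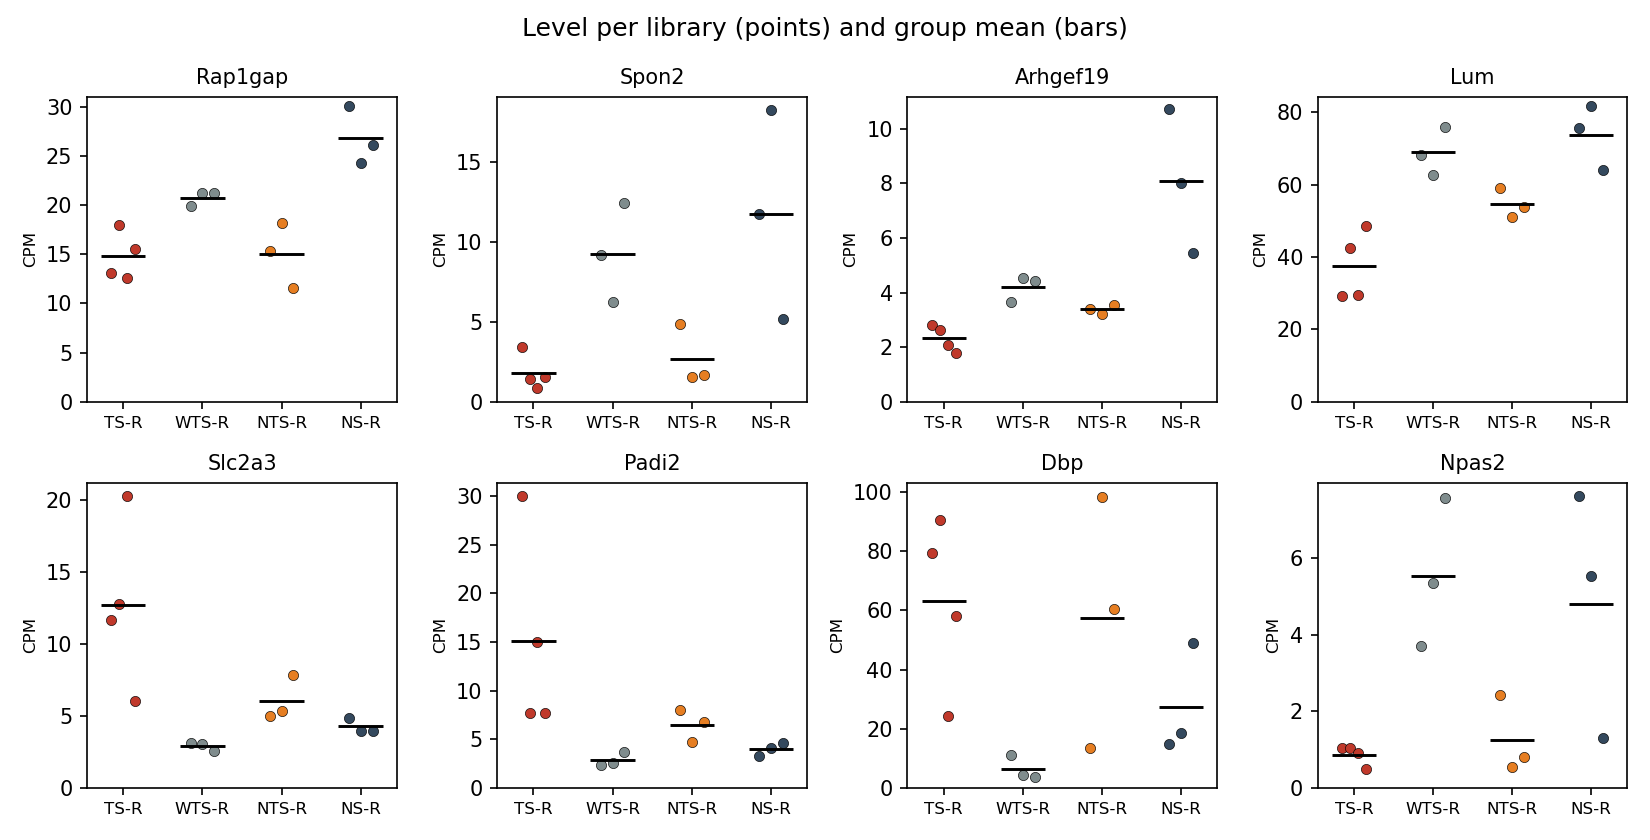
CPM of 8 genes in each library (points) with the group mean (bar), for TS-R beside WTS-R and NTS-R beside NS-R. In Rap1gap, Spon2, Arhgef19 and Lum all 7 diabetic-donor libraries lie below the 6 others, in Slc2a3 and Padi2 they lie above, and in Dbp and Npas2 single libraries such as NTS-R replicate 1 and NS-R replicate 3 overlap the other side.

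Most listed extracellular matrix genes had a negative average, though none passed the main test. The Nlrp3 KO part of this depended on which NS-R libraries were kept, as given below. Of 24 listed matrix and fibrosis genes 18 were lower and 1 was higher with an unadjusted p under 0.05, beside 4.78% and 6.6% of all genes. The same sign held in both genotypes for 23 of them, 22 lower and Tnc higher. The list's median log2 fold change was -0.71 on average, -1.10 in TS-R minus WTS-R and -0.42 in NTS-R minus NS-R, where all genes tested had 0.01, 0.03 and -0.01. DESeq2 and voom both called 8 of the 24 lower with the same sign in both genotypes, namely Col3a1, Col5a1, Col6a1, Col6a2, Col6a3, Lum, Loxl2 and Postn.

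Lum encodes lumican, a proteoglycan that spaces collagen fibrils. Lum was at 29.2, 42.5, 29.5 and 48.6 CPM in the TS-R libraries and 59.1, 51.2 and 53.7 CPM in the NTS-R libraries, against 68.3, 62.8 and 76 CPM in the WTS-R libraries and 75.6, 81.7 and 64.1 CPM in the NS-R libraries. No diabetic-donor library reached the lowest of the others. Its averaged log2 fold change was -0.66 (SE 0.14, edgeR FDR 0.251, DESeq2 adjusted p 0.00523).

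Col3a1 encodes the main collagen of loose connective tissue and Eln the elastin of vessel walls. Col3a1 was at 306, 235, 123 and 305 CPM in the TS-R libraries and 766, 298 and 438 CPM in the NTS-R libraries, against 963, 804 and 924 CPM in the WTS-R libraries and 1141, 1170.4 and 308 CPM in the NS-R libraries. NS-R replicate 3 sat among the diabetic-donor libraries and NTS-R replicate 1 near the others. Eln was at 33.3 to 49.1 CPM in the TS-R libraries and 34.3 to 85.6 CPM in the NTS-R libraries, against 72 to 114 CPM in the WTS-R libraries and 44 to 219.6 CPM in the NS-R libraries. The averaged log2 fold change was -1.35 (SE 0.34) for Col3a1 and -1.25 (SE 0.32) for Eln. It was -0.60 for Col3a1 and -0.46 for Eln without NS-R replicates 1 and 2, and -0.60 and -0.29 with the level of clock genes as a covariate.

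The crosslinking enzyme gene Loxl2 had a log2 fold change of -1.37 (SE 0.26) in TS-R minus WTS-R and -0.32 (SE 0.28) in NTS-R minus NS-R. Col6a2 and Col6a3, chains of the microfibrillar collagen VI, had averaged values of -0.80 (SE 0.20) and -0.62 (SE 0.16). The exception Tnc, which encodes tenascin C of remodelling tissue, had 0.65 (SE 0.30), and its groups overlapped.

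The Nlrp3 KO side of the matrix result depended on which NS-R libraries were kept. NS-R replicates 1 and 2 had the highest matrix levels of that group and were also the 2 airway-rich libraries, in which the 10 airway markers summed to 6297.9 and 12658.9 CPM, whereas they stayed between 2.32 and 5.4 CPM in the other libraries. Without these 2, the median of the matrix list was 0.14 in NTS-R minus NS-R, -1.10 in TS-R minus WTS-R and -0.47 on average, and 9 of the 24 genes had the same sign in both genotypes. NS-R was then NS-R replicate 3 alone, which is a Xist-rich library. Its matrix level of 6.37 lay within the NTS-R range of 6.15 to 6.84. Without NS-R replicate 3 instead, the median was -0.50 in NTS-R minus NS-R and -0.76 on average. The same sign then held in both genotypes for 24 of the 24 genes. The part of the airway tissue in the matrix difference was not tested.

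**Figure D3:**
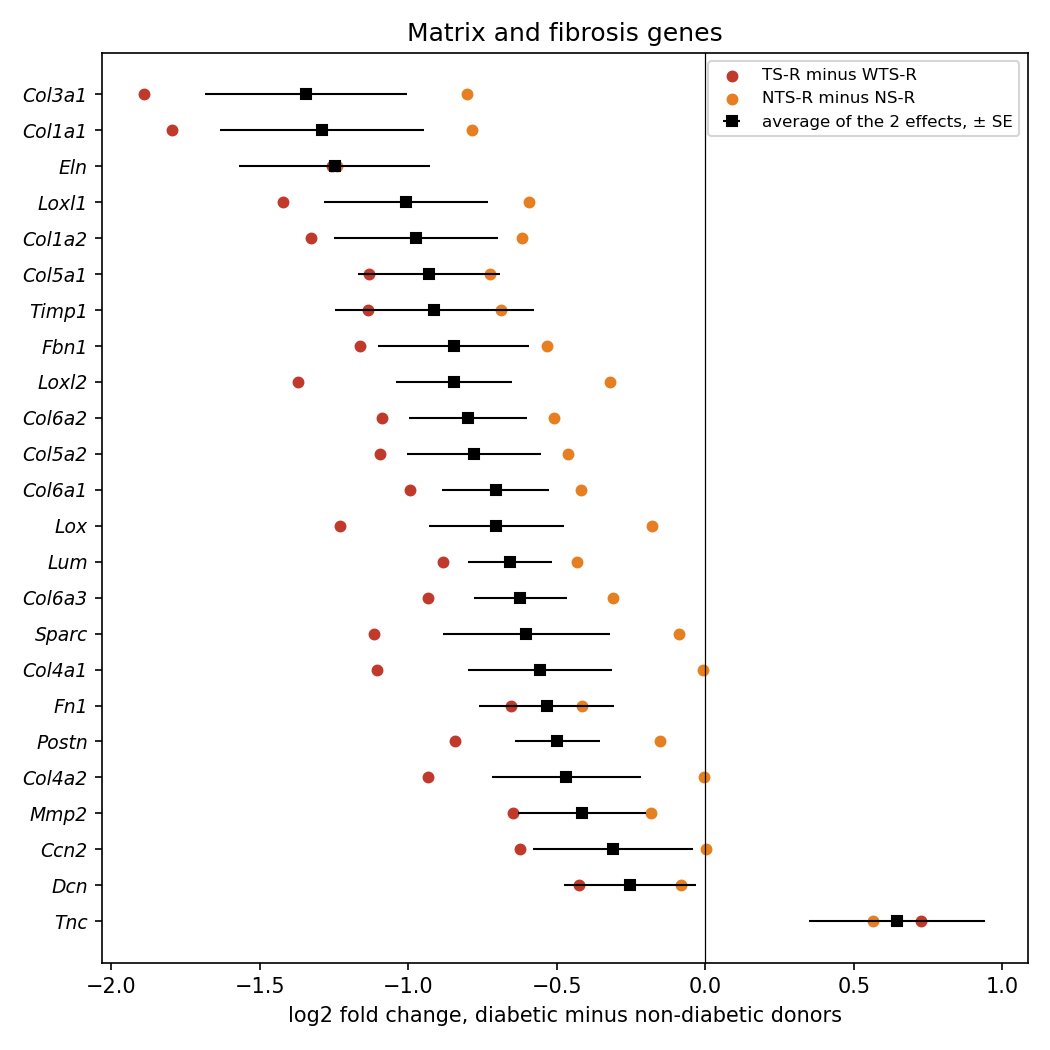
Log2 fold changes of the 24 matrix and fibrosis genes, with the averaged effect and its SE as black squares, TS-R minus WTS-R in red and NTS-R minus NS-R in orange. The averaged effect runs from -1.35 for Col3a1 to 0.65 for Tnc, and the red points lie left of the orange ones in most genes.

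Circadian clock genes came next. In the clock the proteins ARNTL and CLOCK or NPAS2 bind E-box sequences and switch on Per, Cry, Nr1d1, Ciart, Bhlhe41 and Dbp, whose products feed back. NR1D1 and the ROR receptors act on Arntl, Npas2 and Nfil3, and DBP, TEF and HLF act on D-box sequences that NFIL3 also binds. Most of the genes that ARNTL drives (here the Dbp arm) and Arntl with its companions (the Arntl arm) peak at opposite times of day in most tissues of the mouse. Cry1 was listed in the Arntl arm, although ARNTL also switches it on.

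The promoters of 4 clock genes are printed to show these elements in genes of both arms. They are RefSeq promoters of the mouse build GRCm38.p6, each from 250 bases before to 50 bases after the start of the gene, all on the minus strand, and capitals mark the motif found. Bhlhe41 (chr6:145865371-145865670) and Ciart (chr3:95882179-95882478) hold the E-box CACGTG, Per3 (chr4:151044616-151044915) holds the D-box TTATGTAA, and Nfil3 (chr13:52980990-52981289) holds AGGTCA, read from the other strand. E-boxes were found 1 time in Bhlhe41 and 3 times in Ciart, and the D-box 2 times in Per3.
Bhlhe41: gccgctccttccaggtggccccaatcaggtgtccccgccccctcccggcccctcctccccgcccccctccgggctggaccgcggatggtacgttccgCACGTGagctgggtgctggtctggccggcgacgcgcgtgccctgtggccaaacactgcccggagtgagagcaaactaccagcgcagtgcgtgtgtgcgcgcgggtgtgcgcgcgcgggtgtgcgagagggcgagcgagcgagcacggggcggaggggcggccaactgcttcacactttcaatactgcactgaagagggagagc
Ciart: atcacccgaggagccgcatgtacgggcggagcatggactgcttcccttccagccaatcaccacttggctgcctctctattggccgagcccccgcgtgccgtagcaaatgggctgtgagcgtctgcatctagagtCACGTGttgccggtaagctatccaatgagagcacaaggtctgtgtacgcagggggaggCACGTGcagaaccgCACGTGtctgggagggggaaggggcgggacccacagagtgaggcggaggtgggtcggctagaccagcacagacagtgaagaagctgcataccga
Per3: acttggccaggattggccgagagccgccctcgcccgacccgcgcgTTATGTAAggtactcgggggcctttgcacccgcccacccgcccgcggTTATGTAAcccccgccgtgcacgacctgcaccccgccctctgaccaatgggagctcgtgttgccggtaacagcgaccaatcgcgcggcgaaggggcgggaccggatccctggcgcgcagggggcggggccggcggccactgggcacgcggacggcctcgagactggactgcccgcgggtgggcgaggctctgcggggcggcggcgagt
Nfil3: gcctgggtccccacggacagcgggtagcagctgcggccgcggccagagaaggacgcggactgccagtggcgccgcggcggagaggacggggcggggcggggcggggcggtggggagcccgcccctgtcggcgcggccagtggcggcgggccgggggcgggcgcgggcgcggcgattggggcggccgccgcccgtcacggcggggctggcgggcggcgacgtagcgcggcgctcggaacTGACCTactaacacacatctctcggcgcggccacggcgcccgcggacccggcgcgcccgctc
Both strands were searched for the exact letters, and no motif overlapped another. Over 32851 promoters of this length CACGTG was found in 7.15%, TTATGTAA in 0.938% and AGGTCA in 16.3%. Of the Dbp arm 9 of 10 genes had a promoter among those counted, and these letters were found in 4, 1 and 2 of them. Of the Arntl arm 5 of 5 genes had one, with the letters in 1, 0 and 3, and the E-box was that of Cry1. A gene with several promoters was counted if any of them held the letters, whereas the percentages are over single promoters. Promoters on 1 chromosome were left out of the counts but not of the percentages. The counts and percentages are therefore not on one scale. Per1, Arntl and Clock each also had a promoter without any of the letters. A match describes the letters and is no proof of a working site.

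All 10 genes of the Dbp arm had the same sign in both genotypes, 9 of them higher. With p under 0.05 before adjustment were 7 higher and 0 lower members, beside 6.6% and 4.78% of all genes tested. The median log2 fold change of the arm was 1.09 on average, 1.19 in TS-R minus WTS-R and 0.64 in NTS-R minus NS-R. The interaction had an unadjusted edgeR p under 0.05 for 3 of the 10, beside 18.3% of all genes. Dbp, whose product is a clock output transcription factor, was at 79.4, 90.6, 24.2 and 58.2 CPM in the TS-R libraries and 13.4, 98.4 and 60.5 CPM in the NTS-R libraries, against 11.2, 4.28 and 3.67 CPM in the WTS-R libraries and 14.9, 18.4 and 48.9 CPM in the NS-R libraries. TS-R stood clear of WTS-R, while NTS-R replicate 1 and NS-R replicate 3 each lay on the other side. The averaged log2 fold change of Dbp was 2.19 (SE 0.51, edgeR FDR 0.251). It was 3.30 (SE 0.74) in TS-R minus WTS-R and 1.07 (SE 0.70) in NTS-R minus NS-R, with an unadjusted edgeR interaction p of 0.041.

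Bhlhe41, a repressor of the E-box loop whose promoter is given above, was at 39.1, 35.4, 22.2 and 17.1 CPM in the TS-R libraries and 6.76, 24.5 and 20.3 CPM in the NTS-R libraries, against 6.48, 4.84 and 4.37 CPM in the WTS-R libraries and 5.63, 7.27 and 16.3 CPM in the NS-R libraries. The overlap again came from NTS-R replicate 1 and NS-R replicate 3. Bhlhe41 had an averaged log2 fold change of 1.63 (SE 0.35), and of the Dbp arm it alone was called by both DESeq2 and voom. Its values were 2.44 (SE 0.50) in TS-R minus WTS-R and 0.83 (SE 0.50) in NTS-R minus NS-R. The edgeR interaction p was 0.035 before adjustment. Per3, a period gene, had 2.26 (SE 0.52) in TS-R minus WTS-R and 0.04 (SE 0.51) in NTS-R minus NS-R. Tef and Hlf, partners of Dbp, had averaged values of 1.03 (SE 0.36) and 0.88 (SE 0.29). Ciart had 1.18 (SE 0.63), and Per1, the exception, had -0.40 (SE 0.30).

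In the Arntl arm 3 of 5 genes were lower and 1 was higher at an unadjusted p under 0.05. The interaction reached that level for 2 of the 5. Npas2, the partner of ARNTL, was at 1.05, 1.04, 0.903 and 0.488 CPM in the TS-R libraries and 2.43, 0.534 and 0.806 CPM in the NTS-R libraries, against 3.72, 5.35 and 7.59 CPM in the WTS-R libraries and 7.62, 5.54 and 1.29 CPM in the NS-R libraries. The averaged log2 fold change of Npas2 was -2.29 (SE 0.45, edgeR FDR 0.251), and -1.35 without NS-R replicates 1 and 2. Nfil3, the D-box repressor gene, had -2.23 (SE 0.46) in TS-R minus WTS-R and -0.33 (SE 0.48) in NTS-R minus NS-R, and Arntl had -1.47 (SE 0.75) and -1.03 (SE 0.82). Cry1 went the other way, with 0.67 (SE 0.24) on average.

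A clock level was taken for each library as the mean log2(CPM + 0.5) of the Dbp arm minus that of the Arntl arm. It was 2.67, 3.21, 1.63 and 3.20 in the TS-R libraries and 0.90, 3.78 and 2.92 in the NTS-R libraries, against 0.78, -0.01 and -0.57 in the WTS-R libraries and 0.40, 0.87 and 2.96 in the NS-R libraries. NS-R replicate 3 lay with the diabetic-donor libraries and NTS-R replicate 1 with the others. Collection time is not in the labels, and time and donor group cannot be told apart for these genes. Without NS-R replicates 1 and 2 the median of the Dbp arm was 0.03 in NTS-R minus NS-R and that of the Arntl arm 0.43, and 7 of 10 and 2 of 5 genes had the same sign in both genotypes. Without NS-R replicate 3 instead, these medians were 1.13 and -0.61. The same sign then held for 9 of 10 and 4 of 5 genes.

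The plasma cell list differed mainly in TS-R minus WTS-R. The interaction had an unadjusted p under 0.05 for 11 of 18 genes, beside 18.3% of all genes tested. In the average 8 of the 18 were higher and 0 lower with unadjusted p under 0.05, beside 6.6% and 4.78% of all genes. The same sign in both genotypes held for 10 of the 18, all higher. The median log2 fold change of the list was 0.96 on average, 2.04 in TS-R minus WTS-R and 0.07 in NTS-R minus NS-R. Jchain, the gene of the chain that links antibody units, was at 109.6, 459, 1815 and 564 CPM in the TS-R libraries and 34.3, 109.5 and 184 CPM in the NTS-R libraries, against 2.69, 1.57 and 2.7 CPM in the WTS-R libraries and 4.66, 5.6 and 207 CPM in the NS-R libraries. Apart from NS-R replicate 3, every diabetic-donor library was above every other. Its averaged log2 fold change was 4.45 (SE 1.002, edgeR FDR 0.251), with 0.60 (SE 1.23) in NTS-R minus NS-R.

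Prdm1, the master regulator gene of plasma cells, was at 3.92, 4.93, 10.2 and 1.83 CPM in the TS-R libraries and 2.6, 1.83 and 2.98 CPM in the NTS-R libraries, against 0.77, 1.01 and 0.9 CPM in the WTS-R libraries and 1.52, 0.981 and 2.04 CPM in the NS-R libraries. Its averaged log2 fold change was 1.63 (SE 0.37). Igha, the IgA heavy chain gene, was at 415 to 1900.4 CPM in the TS-R libraries and 4.51 to 372 CPM in the NTS-R libraries, against 0.706 to 8.62 CPM in the WTS-R libraries and 1.68 to 532 CPM in the NS-R libraries. DESeq2 and voom both called Jchain, Prdm1 and the receptor gene Slamf7 higher.

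Immunoglobulin variable genes, each the germline segment of part of the antibody repertoire, made up much of the list of higher genes. Of the 129 shared genes that DESeq2 and voom both called, 30 were variable segments, which made up 156 of the 17270 genes tested. Ighv6-6 was at 1.28, 4.2, 21.7 and 5.73 CPM in the TS-R libraries and 0.173, 1.75 and 2.98 CPM in the NTS-R libraries, against 0, 0.0629 and 0 CPM in the WTS-R libraries and 0.0524, 0.462 and 0.954 CPM in the NS-R libraries. The mean log2(CPM + 0.5) of the 156 variable genes tested was 0.47, 2.64, 4.97 and 2.88 in the TS-R libraries and -0.09, 0.84 and 1.14 in the NTS-R libraries, against -0.88, -0.91 and -0.89 in the WTS-R libraries and -0.89, -0.80 and 1.68 in the NS-R libraries. NS-R replicate 3 was above every NTS-R library. Related segments can share reads, and this group was formed after its values were seen. It holds the 156 of 251 variable genes that passed the filter on low counts. Segments almost silent in the WTS-R libraries passed only through other groups, so the gap to WTS-R is a description and not a test.

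B cell and T cell genes were higher on average, and the larger part lay in TS-R minus WTS-R. Of 16 B cell genes 16 were higher at an unadjusted p under 0.05, with a median log2 fold change of 5.74 in TS-R minus WTS-R and 0.26 in NTS-R minus NS-R. Of 20 T cell genes 19 were, with medians of 4.92 and 0.12. Of all genes tested 6.6% were higher at that level. The interaction reached an unadjusted p under 0.05 for 16 of the 16 and 20 of the 20, beside 18.3% of all genes. Pou2af1, a B cell coactivator gene, was at 3.04, 44.3, 292 and 17.9 CPM in the TS-R libraries and 1.91 to 4.57 CPM in the NTS-R libraries, against 0.707 to 0.962 CPM in the WTS-R libraries and 0.866 to 4.63 CPM in the NS-R libraries. The 10 lymph node stroma genes summed to 28.5 to 1769.8 CPM in TS-R, 14.8 to 38.5 CPM in NTS-R, 22.2 to 59.0 CPM in the WTS-R libraries and 28.3 to 42.8 CPM in the NS-R libraries. They were highest in the same TS-R replicate 3, and TS-R replicates 2 and 4, at 457 and 108 CPM, also lay above every library outside TS-R. Their part in the lymphocyte difference was not tested. Without TS-R replicates 1 and 3 and NS-R replicates 1 and 2 the medians were 4.82 and 0.05 for B cell genes and 4.33 and -0.62 for T cell genes, but the TS-R libraries kept there still hold those lymph node transcripts. DESeq2 called 15 of the 16 B cell and 17 of the 20 T cell genes higher in the averaged effect, and voom called 0 and 0. By voom 5 of the 16 B cell genes had the same sign in both genotypes, against 14 by edgeR. For the 20 T cell genes it was 16 by voom and 13 by edgeR.

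Antigen presentation genes had smaller medians than the lymphocyte lists in TS-R minus WTS-R. Of 15 dendritic cell and MHC class II genes 14 were higher at an unadjusted p under 0.05 and 9 had the same sign in both genotypes, and the list's median was 1.87 in TS-R minus WTS-R and 0.37 in NTS-R minus NS-R. Ciita, the switch gene of MHC class II, had a log2 fold change of 3.81 and 1.22, and H2-Aa, a class II chain gene, had 1.72 and 0.52. Among 12 NK and cytotoxic genes 9 were higher at an unadjusted p under 0.05. The median of these 12 was 2.71 in TS-R minus WTS-R and 0.23 in NTS-R minus NS-R. The receptor gene Klrk1 had 1.39 (SE 0.41) on average, with 2.03 in TS-R minus WTS-R and 0.75 in NTS-R minus NS-R.

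**Figure D4:**
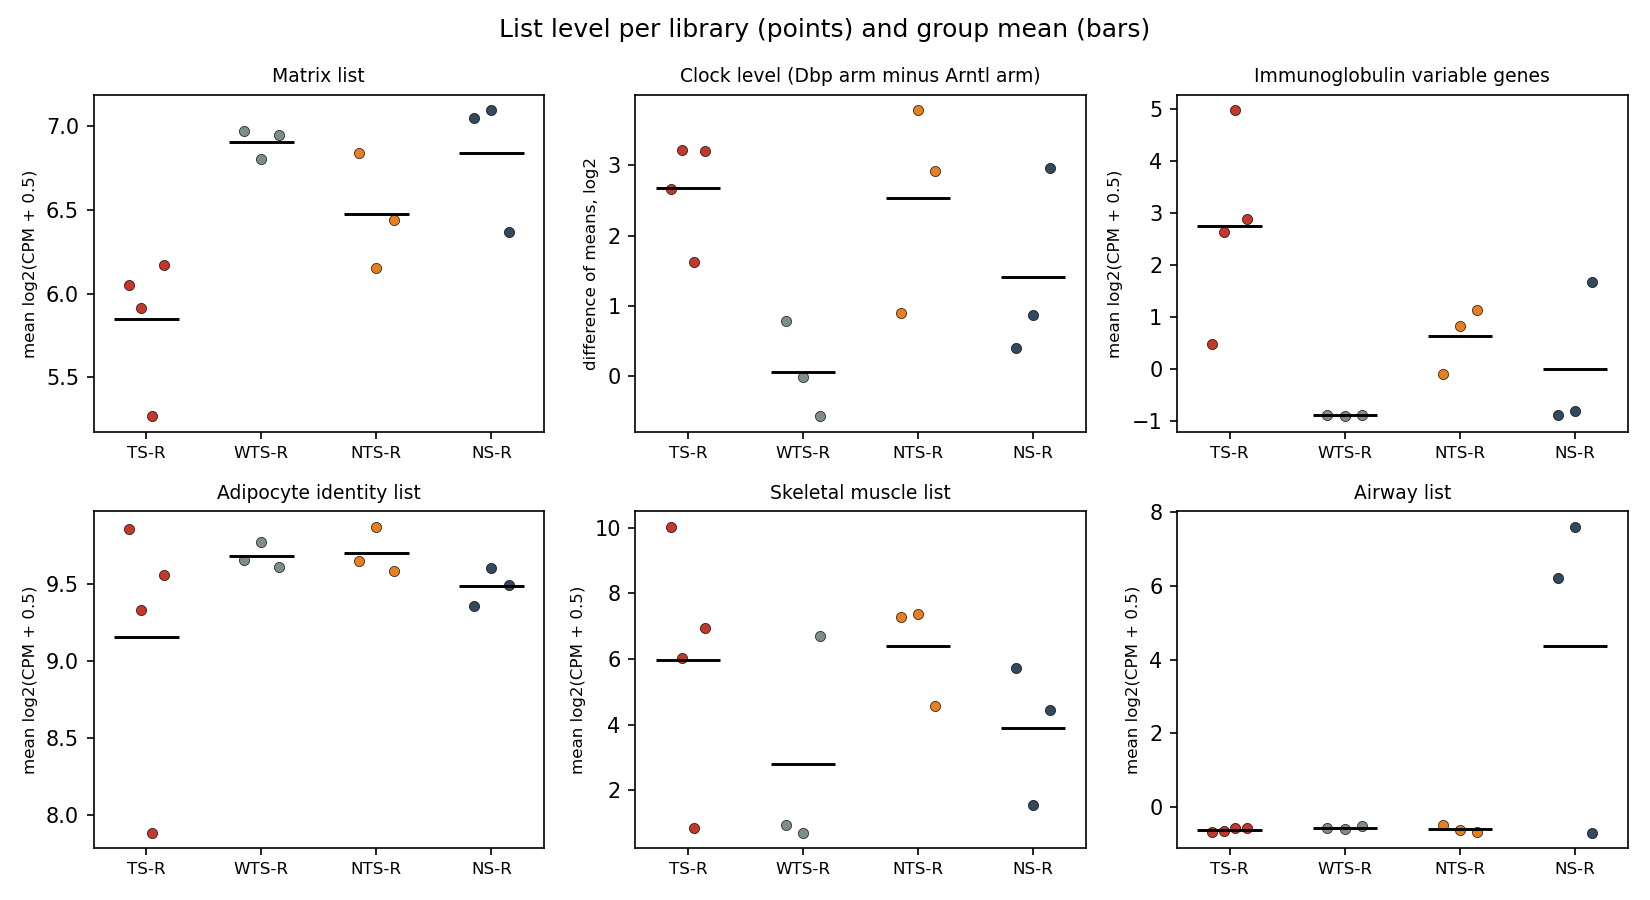
Level of 6 gene lists in each library (points) with the group mean (bar): mean log2(CPM + 0.5) of the list, or for the clock the difference of 2 such means. NS-R replicate 3 lies with TS-R and NTS-R in the matrix, clock and immunoglobulin panels, the airway list stands out in NS-R replicates 1 and 2 alone, and skeletal muscle varies within every group.

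Of 18 macrophage and monocyte genes 4 were higher and 0 lower with p under 0.05 before adjustment, and the median log2 fold change of the list was 0.24. Of 16 tested genes of the inflammasome and IL-1 list 4 were higher and 0 lower with an unadjusted p under 0.05. The list had a median log2 fold change of 1.24 in TS-R minus WTS-R and -0.07 in NTS-R minus NS-R, and the interaction had an unadjusted p under 0.05 for 5 of the 16. Casp1, which encodes caspase-1, was at 14.1, 20.9, 36.6 and 18.7 CPM in the TS-R libraries and 18.4, 9.84 and 14.1 CPM in the NTS-R libraries, against 11.7, 7.92 and 12.7 CPM in the WTS-R libraries and 9.95, 12 and 12.3 CPM in the NS-R libraries. For Casp1 the averaged log2 fold change was 0.69 (SE 0.23, edgeR FDR 0.31). The sensor gene Nlrp1b had 0.86 (SE 0.36). Il1b had 2.59 (SE 0.50) in TS-R minus WTS-R and -1.65 (SE 0.50) in NTS-R minus NS-R, so that its average of 0.47 (SE 0.34) described neither genotype.

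Most fat cell genes did not have the same sign in both genotypes, where 45% of all genes tested did. Of 16 adipocyte identity genes 1 had the same sign in both genotypes, and the list's median log2 fold change was -0.49 in TS-R minus WTS-R and 0.26 in NTS-R minus NS-R. Fatty acid oxidation enzymes, which feed heat production, also had 1 of 16 with the same sign, with medians of -0.65 and 0.31. Respiratory chain genes had 3 of 17, with medians of -0.60 and 0.11. Brown adipocyte genes had 6 of 16, nearer the share of all genes, with medians of -0.71 and 0.08. TS-R replicate 3 was far below the other TS-R libraries. Its mean log2(CPM + 0.5) was 7.89 against 9.33 to 9.86 for adipocyte identity, and 7.30 against 8.93 to 9.36 for fatty acid oxidation. At an unadjusted p under 0.05 the averaged effect held 0 genes of these 4 lists. Ucp1, the uncoupling protein gene of brown fat, was at 999, 1255, 303 and 1820.2 CPM in the TS-R libraries and 1541, 1682 and 2085 CPM in the NTS-R libraries, against 2356, 4367 and 2285 CPM in the WTS-R libraries and 1429, 1808 and 1807 CPM in the NS-R libraries. Its log2 fold change was -1.46 (SE 0.46) and 0.07 (SE 0.49). Il1b, Ucp1 and Adipoq were picked after their values were seen.

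Insulin signalling genes had 1 of 12 members higher and 1 lower with p under 0.05 before adjustment. These counts are near the shares of all genes tested, 6.6% and 4.78%. Pik3r1, the regulatory subunit gene of PI3 kinase, had 0.59 (SE 0.23) on average, and the insulin receptor substrate gene Irs2 had -0.90 (SE 0.36).

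Immediate early genes, which respond within minutes to stimuli and to tissue handling, had 14 of 14 members with a negative average and 10 of 14 lower with an unadjusted p under 0.05, but 5 of 14 had the same sign in both genotypes. The list's median log2 fold change was 0.23 in TS-R minus WTS-R and -2.19 in NTS-R minus NS-R. The interaction had an unadjusted p under 0.05 for 10 of the 14, beside 18.3% of all genes tested. Nr4a1 was at 154, 398, 93.2 and 263 CPM in the TS-R libraries and 54.3, 49.7 and 72.4 CPM in the NTS-R libraries, against 269, 169 and 373 CPM in the WTS-R libraries and 528, 709 and 328 CPM in the NS-R libraries. Atf3, a stress-response transcription factor gene, was the member that DESeq2 and voom both called lower, with -0.84 (SE 0.45) and -1.67 (SE 0.49). Fosb, an AP-1 gene, had -0.20 (SE 0.68) and -4.32 (SE 0.83), and its highest library was NS-R replicate 2 at 141 CPM. The average for Fosb was -2.26 (SE 0.52) with that library and -1.39 without it.

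**Figure D5:**
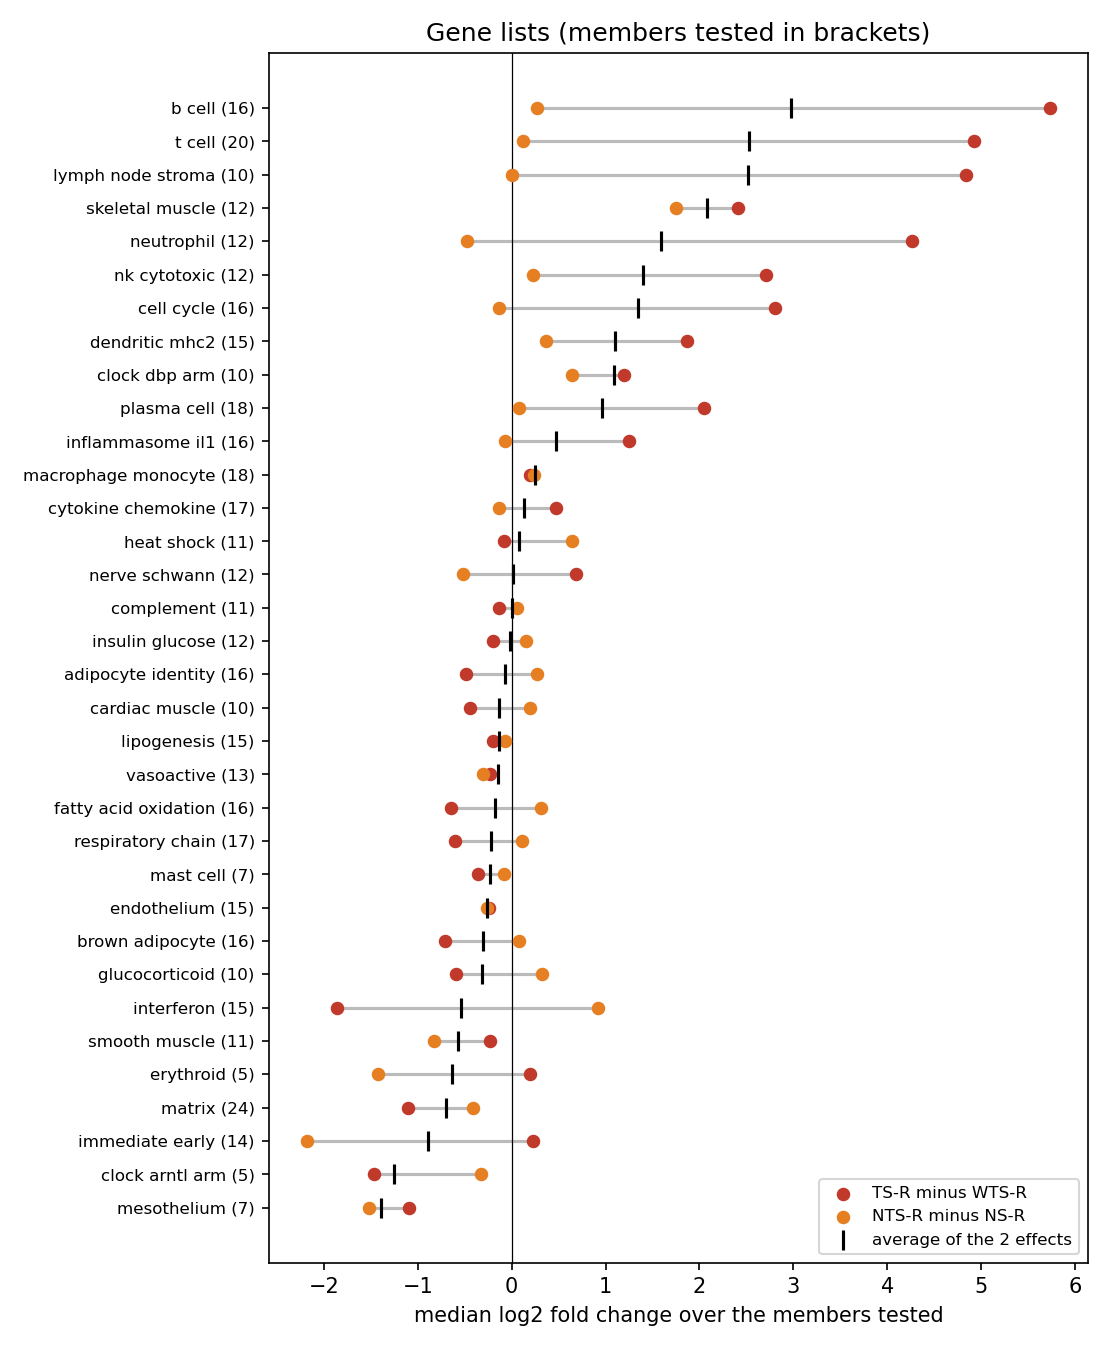
Median fitted log2 fold change of gene lists over their tested members (number in brackets), for TS-R minus WTS-R (red), NTS-R minus NS-R (orange) and their average (black tick). The airway list and the list of T helper and regulatory genes are not shown. Skeletal muscle, the Dbp arm of the clock, matrix, the Arntl arm and mesothelium are among the lists with both points on one side of 0. So are the dendritic and MHC class II, smooth muscle, endothelium and vasoactive lists. B cell, T cell, neutrophil, interferon and immediate early lists have their points far from each other.

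Vessel and lining cells gave smaller lists. Of 15 endothelial genes 1 was higher and 2 were lower with an unadjusted p under 0.05, beside 6.6% and 4.78% of all genes. Cldn5, a tight junction gene of endothelium, was at 117, 54.9, 31.4 and 101 CPM in the TS-R libraries and 65.3, 66.2 and 76.5 CPM in the NTS-R libraries, against 131, 111 and 235 CPM in the WTS-R libraries and 146, 173 and 107 CPM in the NS-R libraries. TS-R replicate 1 was the diabetic-donor library above the lowest of the others. Its log2 fold change was -1.06 (SE 0.39) in TS-R minus WTS-R and -1.03 (SE 0.43) in NTS-R minus NS-R. The adhesion gene Vcam1 had 2.29 (SE 0.65) and 0.31 (SE 0.65).

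Smooth muscle genes had 5 of 11 lower and 0 higher at an unadjusted p under 0.05, with a median log2 fold change of -0.24 in TS-R minus WTS-R and -0.83 in NTS-R minus NS-R. Cnn1, which encodes calponin of contractile cells, was at 3.16 to 8.41 CPM in the TS-R libraries and 10.3 to 16.5 CPM in the NTS-R libraries, against 7.42 to 15.9 CPM in the WTS-R libraries and 16.7 to 53.4 CPM in the NS-R libraries. Its 2 highest values were those of the airway-rich libraries, and its averaged log2 fold change was -1.29 (SE 0.32) with them and -0.66 without.

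Mesothelial and keratin genes had 7 of 7 members with a negative average, 4 of them at an unadjusted p under 0.05. This too depended on which NS-R libraries were kept, with an averaged median of -1.64 without NS-R replicate 3. Krt19, an epithelial keratin gene, was at 71 and 131 CPM in NS-R replicates 1 and 2 and 4.29 CPM in NS-R replicate 3, and the list's averaged median was -1.39 with and -0.04 without the first 2. Krt8 and Krt18 turned positive without them, at 0.40 and 0.51 in place of -2.44 and -1.999. Skeletal muscle genes had 12 of 12 members with a positive average and 2 at an unadjusted p under 0.05. Myh4 was at 0.198 to 2733 CPM in TS-R, 3.55 to 137 CPM in NTS-R, 0 to 12.3 CPM in the WTS-R libraries and 0 to 10.9 CPM in the NS-R libraries, and the 4 ranges overlapped.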

How the data were processed

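Gene-level counts of 13 perivascular fat libraries were analysed as the authors deposited them. The reads were aligned with HISAT2 and counted with featureCounts, per the submitters' processing notes. The sources used here name no genome build, annotation or strand setting, so overlapping, antisense and near-identical genes are uncertain. Of 34013 genes, 33302 had a symbol in the table given with the files, which holds 21 symbols shared by more than 1 gene.

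Counts were filtered by filterByExpr (17270 genes kept), scaled by TMM and fitted with edgeR 4.0.16 (quasi-likelihood, R 4.3.3) as 4 groups without covariates. The contrast was (TS-R + NTS-R - WTS-R - NS-R)/2. P-values were Benjamini-Hochberg adjusted over all genes tested. DESeq2 1.42.0 and limma 3.58.1 were alternatives. CPM uses the fit's scaling. A list's level is the mean log2(CPM + 0.5) of its members. Named genes were the 12 of each direction with the smallest p among those with the same sign in both genotypes and a mean of at least 1 CPM, up to 4 members of each of 36 gene lists, and Nlrp3. Because no gene passed the FDR, the smallest unadjusted p filled these places. Some genes that met this rule are not reported here. The members and lists were chosen with earlier results of these data known.

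Total counts ran from 14216706 to 37011122. No 2 libraries of a group were alike within counting error (lowest chi-square per degree of freedom 33.3). Promoters came from RefSeq (GRCm38.p6).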

Additional observations from a re-analysis of the deposited data

Results flagged for a closer look

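Fatty acid oxidation genes had level differences of opposite sign in the 2 genotypes. Their mean log2(CPM + 0.5) was lower in every TS-R library than in every WTS-R library and higher in every NTS-R library than in every NS-R library. The difference NTS-R minus NS-R exceeded TS-R minus WTS-R by 1.16, and this difference of levels was not tested. Of the 16 genes 3 had an unadjusted edgeR interaction p under 0.05, a share near the 18.3% of all genes. Il1b, the IL-1 beta gene, had the reverse pattern, at 1.79, 4.08, 7.17 and 2.93 CPM in the TS-R libraries and 0.983, 0.61 and 0.645 CPM in the NTS-R libraries, against 0.513, 0.566 and 0.9 CPM in the WTS-R libraries and 1.86, 3.18 and 2.11 CPM in the NS-R libraries. On the log2(CPM + 0.5) scale NTS-R minus NS-R lay below TS-R minus WTS-R, at a difference of -3.02, and the edgeR interaction p was 5.1e-05 before and 0.115 after adjustment.

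TS-R replicate 3 was marked as an outlier among the TS-R libraries in 3 values. The gap to the nearest library was 0.899 of the group's range for the smooth muscle level, 0.912 for Hlf and 0.956 for Kcnj8. It was the lowest in each, with Kcnj8 at 17.3 CPM against 31.6, 31.7 and 32.4 CPM in the others. Chance alone marks about 1 group in 20 in this way. The screen ran over the levels of the 36 lists and over many genes named in the text. Some marks are therefore due by chance, and these 3 are not read as a finding.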

How the results depend on the processing

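The count of genes passing an adjusted p of 0.05 depended on the method. For the averaged effect (higher, lower, shared higher, shared lower), DESeq2 gave 342, 135, 264 and 130, and voom 119, 83, 108 and 79. Without the 2 Xist-rich libraries the counts were 132, 228, 131 and 176, with sex as a covariate 134, 113, 134 and 97, and without the 4 libraries rich in neighbouring tissue, a setting chosen after seeing the data, 10, 2, 4 and 2. Leaving out 1 library gave 0 to 84, 0 to 155, 0 to 84 and 0 to 126, the highest without NS-R replicate 3. TS-R minus WTS-R gave 1906 genes by DESeq2, 3816 by voom, 889 without the filter on low counts, 50 and 942 without the 2 and the 4 libraries, 18 with the sex covariate and 0 to 1906 on leaving out 1 library, the highest without TS-R replicate 1. In the same order NTS-R minus NS-R gave 210, 12, 126, 758, 10, 132 and 0 to 563, the highest without NS-R replicate 3. The interaction gave 1086, 1872, 92, 401, 162, 21 and 0 to 517, the highest again without that TS-R library, and 106 when the clock level was a covariate. Main counts stayed at 0 with RLE scaling, robust fitting, an additive model and without the airway-rich libraries, also chosen after seeing the data.

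The replicate numbers were not taken to pair the samples. Of 18 same-numbered pairs 6 had a correlation over 0.1, with a range of -0.301 to 0.306. Differently numbered pairs reached 0.397 (NTS-R replicate 3 and WTS-R replicate 2). These values do not show that pairing is absent. With the replicate block the counts were 45, 5, 43 and 5 for the averaged effect, 784 for TS-R minus WTS-R and 19 for the interaction.

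Of 2035 gene values under other settings 5 changed sign: Krt8 at 0.40 and Krt18 at 0.51 without the airway-rich libraries, and Krt8 at 0.46, Krt18 at 0.61 and Msln at 0.14 without the 4 libraries. The cause was not tested. Of 898 list medians 13 moved beyond the spread between replicates.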

Other observations

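Further gene lists, described by their counts and medians, had unlike values in the 2 genotypes. Of 16 cell cycle genes 12 were higher at an unadjusted p under 0.05, where 6.6% of all genes tested were. The cell cycle genes had a median log2 fold change of 2.81 in TS-R minus WTS-R and -0.14 in NTS-R minus NS-R. Their summed level was 84.3 to 961 CPM in the TS-R libraries and 35.9 to 71.7 CPM in the NTS-R libraries, against 38.5 to 49.1 CPM in the WTS-R libraries and 50 to 65.8 CPM in the NS-R libraries. Neutrophil genes had 5 of 12 higher and 1 lower, with medians of 4.26 and -0.48. Interferon-induced genes, which answer viral and type I interferon signals, had 0 of 15 at that level in the averaged effect and 8 of 15 in the interaction, with medians of -1.87 and 0.92. Their mean log2(CPM + 0.5) was highest in WTS-R replicate 1 (7.16) and NTS-R replicate 1 (6.6), against 3.45 to 5.15 in the other libraries. Erythroid genes had medians of 0.20 and -1.42, with 0 of 5 at that level in either the averaged effect or the interaction. Heat shock genes had medians of -0.08 and 0.64, with 1 of 11 higher and 1 lower.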
